A study of Mus musculus with 24 samples.

Results

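The Hox genes were taken as every gene on the array whose annotated symbol is Hox followed by a cluster letter from a to d and a number. That rule found 50 probes for 38 of the 16593 named genes measured. The members lie in 4 clusters, with 10 measured genes in the Hoxa cluster on chromosome 6, 10 in Hoxb on chromosome 11, 9 in Hoxc on chromosome 15 and 9 in Hoxd on chromosome 2. Of the 38 genes, 29 were read by 1 probe and 9 by several.

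Hox genes encode homeodomain transcription factors. In the embryo their order along a cluster matches the order of their expression along the head-to-tail axis, so that low paralogue numbers mark the hindbrain and neck, middle numbers the trunk, and high numbers the lumbar and tail regions and the distal limb. Fibroblasts, fat cell precursors and bone-forming cells keep part of this code in the adult, and the pattern differs between body sites. The Hox proteins bind DNA together with cofactors of the TALE family (the Meis, Pbx and Pknox proteins), and Polycomb and trithorax complexes hold the clusters silent or active.

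The arrays were Illumina mouse bead arrays of total RNA from male C3HeB/FeJ mice aged 117 days, heterozygous for an Ednra allele (spelled Endra in the labels) or wild-type. The series title names the allele as Y129F, from ENU mutagenesis; Ednra encodes the type A endothelin receptor, which patterns the lower jaw and the outflow tract. There were 4 heterozygous and 4 wild-type arrays each of heart, bone and white adipose tissue, 24 in all. The labels do not say which bone, which fat depot or whether the whole heart was taken. Bone and white adipose tissue carry the same mouse numbers, 7 in all, and 1 of these numbers is given under both genotypes (wild-type replicate 3 and heterozygous replicate 4 of both tissues). The 8 hearts came from other mice. The allele changes the protein, so the Ednra transcript level does not check the genotype labels.

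The labelled tissues carried their defining markers. The summed background-corrected intensity of the adipocyte list was 54797 to 64383 in white adipose tissue, 1529 to 2702 in bone and 221 to 461 in heart. Bone also held skeletal muscle markers (61768 to 77291, against 1312 to 4392 in white adipose tissue), neutrophil markers (79885 to 98329) and cartilage markers (3696 to 7805), so its Hox levels are those of bone with marrow and muscle. White adipose tissue held mesothelial markers at 2592 to 5077, against 113 to 124 in bone. Fibroblast and preadipocyte markers ran from 17812 to 20864 in white adipose tissue, 11704 to 15597 in bone and 9969 to 12824 in heart. In such mixed tissue fewer cells of a type and less RNA per cell cannot be told apart. Wild-type heart replicate 4 stood apart, correlating with the other hearts at 0.916 to 0.935, and heterozygous white adipose replicate 2 carried neutrophil markers at 13604. Kidney markers ran from 166 to 2821 in the hearts and from 117 to 132 in bone and white adipose tissue. Detection counts and the Hoxa5 change in heart are given with and without the arrays that stood apart. Other results use all arrays unless stated.

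Detection was counted gene by gene, since the brightness of different probes cannot be compared. A gene counted as detected in a tissue where at least 1 probe had a deposited detection p under 0.05 in at least 4 of the 8 arrays. White adipose tissue held 21 detected Hox genes and bone 19, while heart held 9. Over all named genes the detected share was 56.0% in white adipose tissue, 57.0% in bone and 51.4% in heart. In single arrays the number of Hox genes was 18 to 23 in white adipose tissue, 15 to 20 in bone and 6 to 11 in heart, so the hearts did not overlap either other tissue. The same held for detected probes of all genes, at 12956 to 13710 in white adipose tissue, 13353 to 13919 in bone and 9931 to 12143 in heart. Without wild-type heart replicate 4 the heart count was 8, and without heterozygous replicate 2 the white adipose count was 20. The heart count depended on the detection rule, from 2 to 18.

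The 3 tissues were nested with few exceptions. All 9 Hox genes of the heart (Hoxa4, Hoxa5, Hoxa13, Hoxb2, Hoxb5, Hoxc4, Hoxc10, Hoxd8 and Hoxd11) were also detected in bone and in white adipose tissue. A further 8 were shared by bone and white adipose tissue only (Hoxa7, Hoxb4, Hoxb7, Hoxc6, Hoxc9, Hoxd4, Hoxd9 and Hoxd10). The 4 members detected in white adipose tissue alone, Hoxa2, Hoxb3, Hoxb6 and Hoxd3, carry numbers from 2 to 6. The 2 detected in bone alone, Hoxa9 and Hoxc13, carry numbers 9 and 13. Hoxc13 passed detection in 5 bones and 3 white adipose arrays, so its place rests on the rule of at least 4 arrays.

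By position along the clusters, the anterior members (paralogues 1 to 3) were detected for 4 of 7 genes in white adipose tissue and for 1 of 7 in either other tissue. The central members (paralogues 4 to 8) were detected for 11 of 15 genes in white adipose tissue, 10 in bone and 5 in heart. The posterior members (paralogues 9 to 13) were detected for 6 of 16 genes in white adipose tissue, 8 in bone and 3 in heart. All 4 paralogue 4 genes were detected in both bone and white adipose tissue, and no measured paralogue 1 or 12 gene was detected anywhere.

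**Figure D1:**
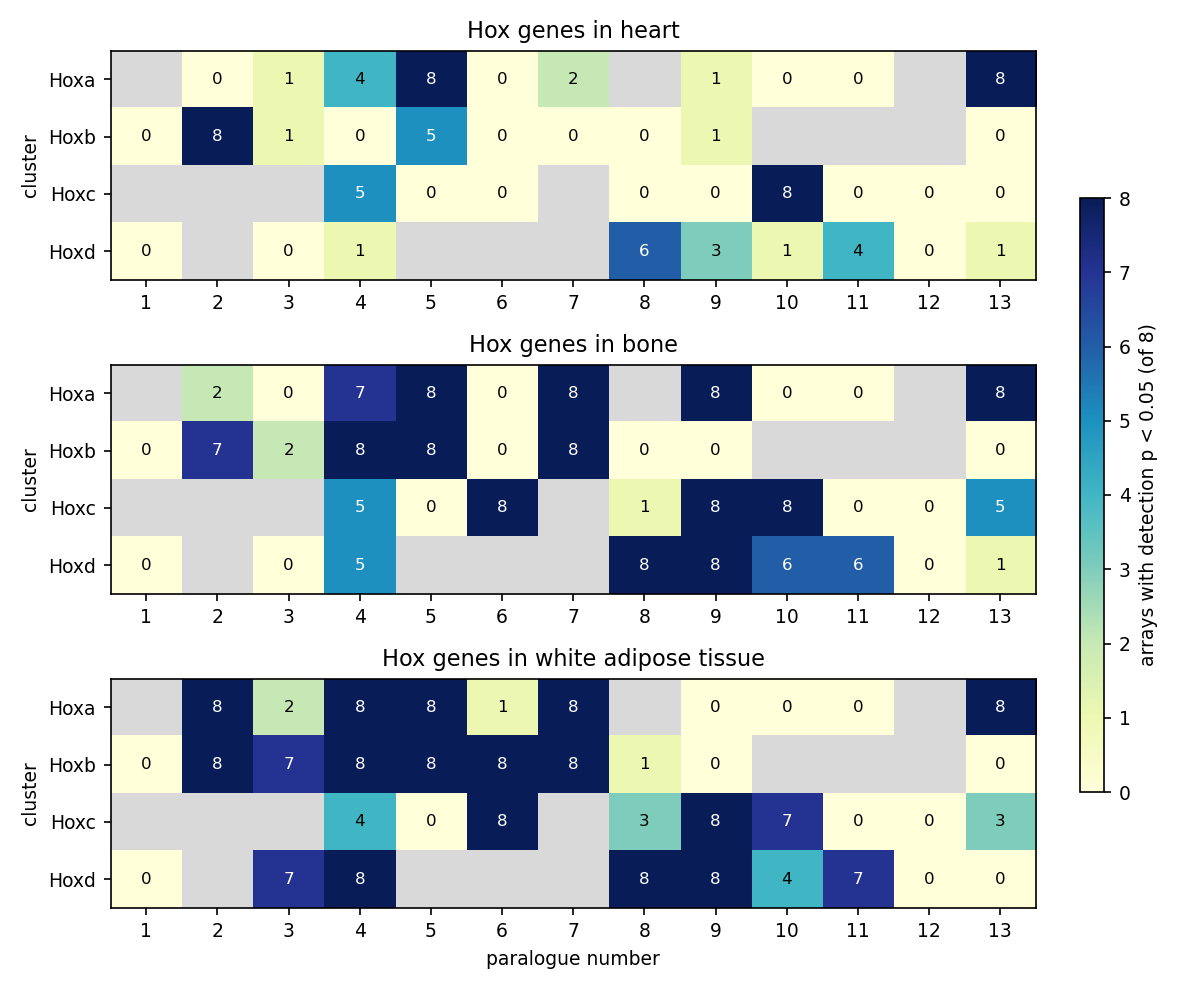
Number of arrays, of 8, with a detection p under 0.05 for each Hox gene, by cluster (vertical axis) and paralogue number (horizontal axis) in each tissue, taking the probe with the most arrays; grey marks positions with no measured gene. Heart shows 9 genes at 4 or more arrays, bone 19 and white adipose tissue 21.

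The 15 members detected in no tissue were Hoxa3, Hoxa6, Hoxa10, Hoxa11, Hoxb1, Hoxb8, Hoxb9, Hoxb13, Hoxc5, Hoxc8, Hoxc11, Hoxc12, Hoxd1, Hoxd12 and Hoxd13. Of these, 9 passed the detection threshold in 0 of the 24 arrays by any probe. The other 6 passed it in at most 3 arrays of a tissue, Hoxc8 in white adipose tissue being the one at 3. At this precision a low level in them was not detectable, which does not show that it is absent.

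Levels are given below as log2 of the background-corrected, quantile-normalized intensity of all 24 arrays together, on which an offset of 16 sets a floor of 4; differences on this scale understate the change of dim genes. Each tissue has 8 arrays, and tissue differences average both genotypes. The test was limma's moderated test with Benjamini-Hochberg adjustment over all genes detected in either tissue of a pair. Where a gene was detected in fewer than 4 of 8 arrays of the dimmer tissue, its difference is given as a lower bound. In each array of that tissue the gene was set at the lowest signal that passed detection, or at its own value where higher. Such a bound compares means and leaves out the spread between arrays. The words at least refer to the detection limit alone, and an interval that counts the spread can start lower. Tissue cannot be told apart from anything else that was done tissue by tissue.

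Among the anterior members, Hoxb2, a hindbrain gene in the embryo, was the one detected in every tissue. Its log2 level ran from 7.36 to 7.89 in white adipose tissue (median 7.65), from 5.90 to 6.70 in heart (median 6.15) and from 4.84 to 5.63 in bone (median 5.30). The 3 tissues did not overlap. Hoxb2 was lower in bone than in white adipose tissue by -2.38 ± 0.12 (SE, adjusted p = 2.1e-14) and lower in bone than in heart by -0.93 ± 0.11 (adjusted p = 8.7e-08).

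Hoxa2, Hoxb3 and Hoxd3 were detected in white adipose tissue alone, and Hoxa3, Hoxb1 and Hoxd1 in no tissue. Hoxa2, which patterns the skeleton of the second pharyngeal arch, ran from 5.38 to 6.06 in white adipose tissue and was at least 1.60-fold lower in bone, where 2 of 8 arrays detected it. A further Hoxa2 probe was detected in 8 white adipose arrays and in 0 arrays of either other tissue. Hoxd3, which acts in the uppermost neck vertebrae, ran from 4.94 to 5.96 in white adipose tissue and was at least 1.54-fold lower in bone and at least 1.09-fold lower in heart. Hoxb3, a hindbrain gene, ran from 4.98 to 5.72, with 7 of 8 white adipose arrays above the detection threshold by 1 probe, while its other probes passed in 2 white adipose arrays each. These levels lay close to the floor, and the tissues of Hoxb3 overlapped.

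Of the central members, Hoxc6, a gene of the thoracic region, was not above background in heart and bright in the other tissues. Its raw intensity ran from 113 to 125 in heart, where 0 of 8 arrays detected it, from 345 to 644 in bone, and from 2037 to 3788 in white adipose tissue. On the log2 scale the medians were 4.71, 8.26 and 10.89, and no array of a tissue overlapped another tissue. Hoxc6 was at least 43.2-fold higher in white adipose tissue than in heart and at least 7.38-fold higher in bone than in heart. Bone was -2.55 ± 0.10 below white adipose tissue (5.85-fold, adjusted p = 9.1e-17).

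Hoxb5, which marks long-term blood stem cells in mouse marrow, ran from 8.28 to 9.29 in white adipose tissue (median 9.07), from 5.00 to 6.80 in heart (median 5.69) and from 4.99 to 5.60 in bone (median 5.38). Heart and bone overlapped, and white adipose tissue lay above both. The difference between bone and white adipose tissue was -3.68 ± 0.20, or 12.9-fold (adjusted p = 7.0e-14), the widest among the 17 members detected in both. Its difference between bone and heart, -0.40 ± 0.19 (adjusted p = 0.0493), passed narrowly. Leaving out any of 12 of the 16 arrays lost that call, wild-type heart replicate 4 among them (-0.27, adjusted p = 0.111).

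Hoxb7 ran from 8.32 to 9.50 in white adipose tissue (median 8.96) and from 5.52 to 6.08 in bone (median 5.83), and 0 of 8 hearts detected it. It was at least 10.7-fold higher in white adipose tissue than in heart and at least 1.26-fold higher in bone than in heart, and bone was -3.08 ± 0.14 below white adipose tissue. Hoxb6, its neighbour in the cluster, ran from 6.01 to 7.38 in white adipose tissue and was detected in 0 of 8 arrays of either other tissue. Its bound was at least 3.48-fold against bone and at least 2.46-fold against heart. Hoxb4, studied for its role in the growth of blood stem cells, ran from 7.21 to 7.88 in white adipose tissue and from 5.87 to 7.07 in bone, a difference of -1.30 ± 0.12. The Hoxb4 bound against heart was at least 4.37-fold for white adipose tissue and at least 1.78-fold for bone.

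**Figure D2:**
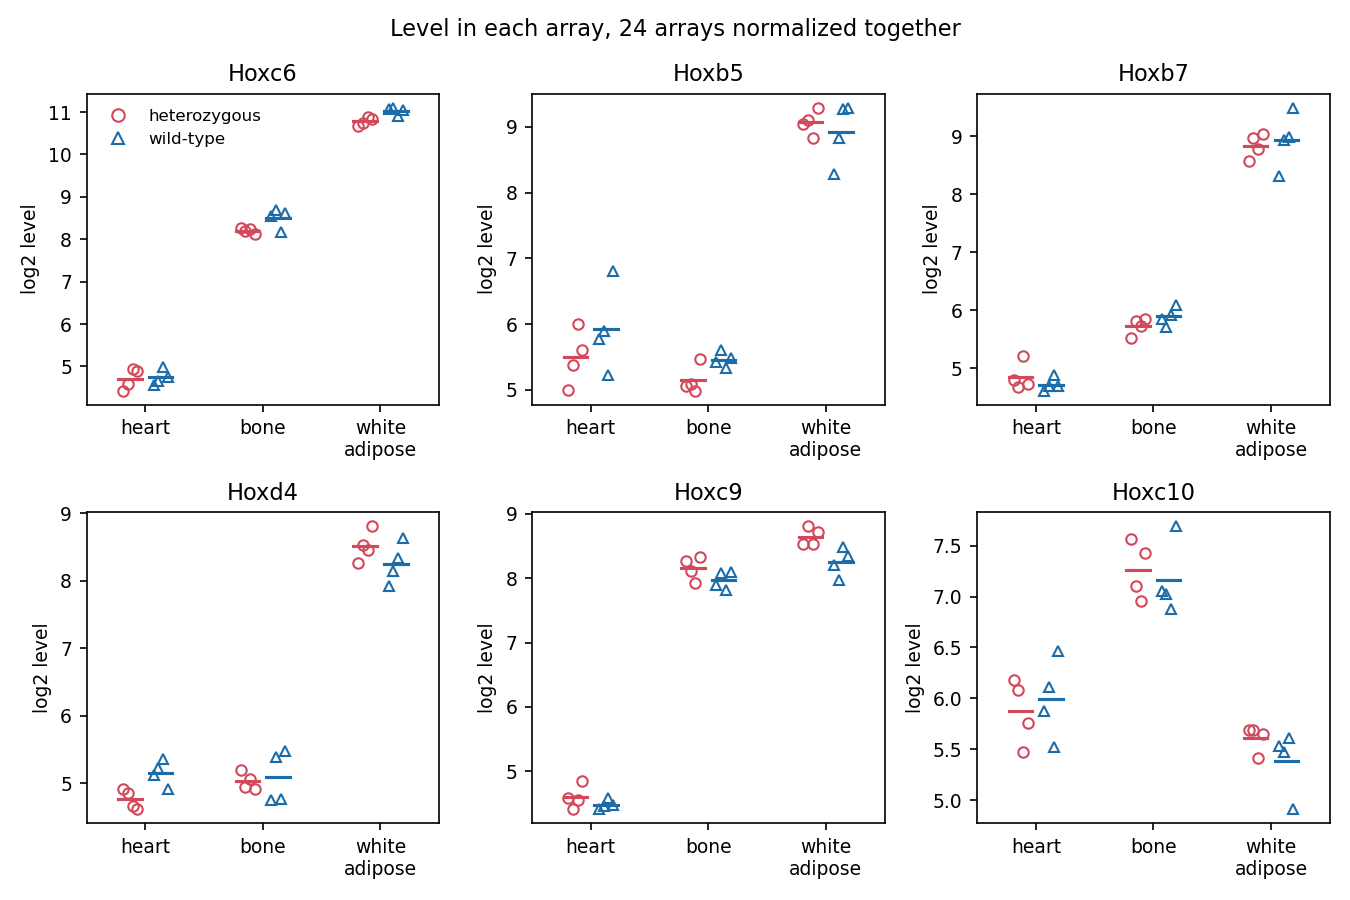
Log2 level of 6 Hox genes in each array, by tissue, with heterozygous arrays as circles, wild-type arrays as triangles and group means (n = 4) as lines; each panel has its own scale and panels are not comparable. Hoxc6, Hoxb5, Hoxb7 and Hoxd4 lie higher in white adipose tissue than in either other tissue, and Hoxc10 lies highest in bone; heart values of Hoxc6, Hoxb7 and Hoxc9 are not above background.

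In the Hoxa cluster, Hoxa5, which acts at the level of the neck and upper thorax and in the lung, ran from 8.75 to 9.62 in white adipose tissue (median 9.39), from 6.69 to 7.00 in bone (median 6.84) and from 5.84 to 7.17 in heart (median 6.11). Bone lay -2.45 ± 0.14 below white adipose tissue (adjusted p = 1.6e-13) without overlap. The bone to heart difference, 0.58 ± 0.13 (adjusted p = 0.000313), was 0.26 over wild-type arrays alone (adjusted p = 0.339). Hoxa7 ran from 8.16 to 9.62 in white adipose tissue (median 9.20) and from 7.11 to 7.45 in bone (median 7.23), a difference of -1.75 ± 0.20. In heart 2 of 8 arrays detected Hoxa7, with a median of 5.14. Hoxa4, a gene of the neck region, ran from 6.03 to 6.25 in white adipose tissue, 4.87 to 5.37 in bone and 4.68 to 5.73 in heart. Bone was -1.02 ± 0.14 below white adipose tissue, and its difference from heart did not pass the threshold (-0.19, 95% interval -0.46 to 0.08, adjusted p = 0.179).

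Hoxd4, which shapes the neck vertebrae, ran from 7.92 to 8.81 in white adipose tissue (median 8.40) and from 4.76 to 5.48 in bone (median 5.01), where 5 of 8 arrays detected it. Bone was -3.32 ± 0.13 below white adipose tissue, 9.99-fold (adjusted p = 3.1e-16). In heart 1 of 8 arrays detected Hoxd4, and the difference between bone and heart did not pass the threshold (adjusted p = 0.443). Hoxd8 ran from 8.71 to 9.55 in white adipose tissue, 6.44 to 7.27 in bone and 5.30 to 6.35 in heart, with no overlap between tissues. Its differences were -2.18 ± 0.18 between bone and white adipose tissue and 0.89 ± 0.17 between bone and heart. Hoxc4 was near the floor everywhere, detected in 5 hearts, 5 bones and 4 white adipose arrays, with medians of 5.55, 5.09 and 4.99. Bone and white adipose tissue differed in Hoxc4 by 0.07 (95% interval -0.22 to 0.37, adjusted p = 0.659).

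Hoxc10, a lumbar gene, was the member that was higher in bone than in white adipose tissue among those detected in both. Its log2 level ran from 6.88 to 7.69 in bone (median 7.08), from 5.48 to 6.46 in heart (median 5.98) and from 4.92 to 5.69 in white adipose tissue (median 5.57). Bone overlapped neither other tissue, and the differences were 1.72 ± 0.16 against white adipose tissue (adjusted p = 1.3e-09) and 1.28 ± 0.15 against heart (adjusted p = 6.3e-08). The other Hoxc10 probe was detected in 8 bones, 1 white adipose array and 0 hearts, with a log2 level of 7.20 to 7.98 in bone. The probes thus gave the same direction for bone and differed on whether heart and white adipose tissue held the transcript.

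Hoxc9, a thoracic gene, ran from 7.82 to 8.33 in bone (median 8.09) and from 7.98 to 8.81 in white adipose tissue (median 8.51), and these ranges overlapped. Bone was -0.38 ± 0.10 below white adipose tissue (adjusted p = 0.000941), a difference of 1.30-fold that did not pass the threshold over wild-type arrays alone (-0.29, adjusted p = 0.115). Hoxc9 was detected in 0 of 8 hearts, with a bound of at least 7.86-fold for white adipose tissue and at least 6.02-fold for bone. Hoxd9, which acts in the lower trunk and the limb, ran from 6.79 to 7.57 in white adipose tissue and from 5.43 to 5.98 in bone, -1.46 ± 0.13 apart, and 3 of 8 hearts detected it. Hoxa9, a gene of blood progenitors and of leukaemia, ran from 4.80 to 5.58 in bone by the probe that stands for it. Hoxa9 was at least 1.23-fold higher in bone than in white adipose tissue, where 0 of 8 arrays detected it. A further Hoxa9 probe was detected in 8 bones and in no other tissue, and the last in 0 bones and 1 heart.

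The remaining posterior members lay near the floor. Hoxd10 ran from 4.59 to 5.59 in bone and from 4.66 to 5.67 in white adipose tissue. Hoxd11 ran from 4.92 to 5.33 in bone, from 4.86 to 5.27 in white adipose tissue and from 4.86 to 6.27 in heart, so all groups overlapped. Hoxd10 and Hoxd11, which pattern the lumbar region and the forelimb, differed between bone and white adipose tissue by 0.01 (95% interval -0.30 to 0.32) and by less than 0.01 (95% interval -0.29 to 0.28), with adjusted p of 0.947 and 0.976. Hoxc13, a hair follicle gene, was detected in 5 bones and 3 white adipose arrays, and the difference did not pass the threshold (adjusted p = 0.815). Hoxa13, a gene of the digits and the genital tract, was detected in all 24 arrays by 1 of its 3 probes, from 5.60 to 7.05, while the other probes passed the detection threshold in 0 arrays. Its difference between bone and white adipose tissue was -0.23 ± 0.12 (adjusted p = 0.0886). Whether any probe also binds a related Hox transcript was not tested.

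Of the 17 members detected in both bone and white adipose tissue, 12 were lower in bone, 1 was higher and 4 did not pass the threshold. Over all 8489 genes detected in both, 75.1% passed, with 39.8% lower and 35.3% higher in bone. For 12 of the 17 the tissues did not overlap (57.7% of all genes). The median difference was -1.46 over the 17 members and -0.06 over all genes. Among the central members 9 of 10 were lower in bone (median -2.31), among the posterior members 2 of 6 were lower and 1 higher (median -0.12), and the anterior Hoxb2 was lower. The Hoxb members were all lower (4 of 4, median -2.73). Every call of the 13 held under cyclic loess and median scaling, which reversed none of them, and median scaling added Hoxa13 (-0.35). Of the members detected in 1 of the 2 tissues, all 4 of white adipose tissue and Hoxa9 of bone passed, against 76.2% of all genes tested. Being picked as detected in 1 tissue only favours a difference in that direction. Of the 10231 genes tested, 8489 were detected in both, so the 76.2% is no like comparison and no conclusion is drawn from this count. Over all genes tested 9.35% were detected in bone only and 7.67% in white adipose tissue only. Without heterozygous white adipose replicate 2 the count of 13 was the same. At the same time adipocyte, fibroblast and preadipocyte markers were lower in bone, as given above. Marrow, skeletal muscle and cartilage markers were higher. The part of these markers in the Hox differences was not tested.

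**Figure D3:**
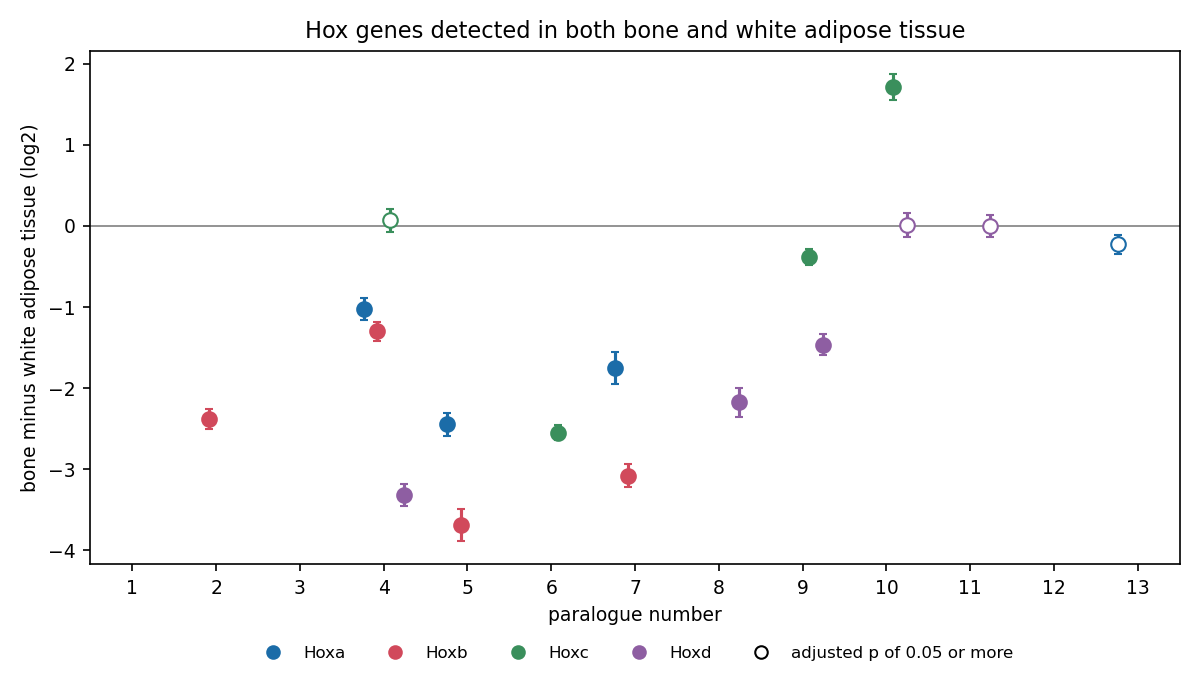
Log2 difference, bone minus white adipose tissue, of the 17 Hox genes detected in both (8 arrays each), by paralogue number and coloured by cluster, with bars of 1 standard error; open points did not pass an adjusted p of 0.05. The 12 genes lower in bone carry numbers 2 to 9, and Hoxc10 is higher in bone; the sign of Hoxd11, which did not pass, turned under cyclic loess and median scaling.

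Of the 9 members detected in both heart and bone, 8 passed the threshold, 3 higher and 5 lower in bone, against 83.4% of all genes detected in both (32.6% higher, 50.8% lower). For 4 of the 9 the tissues did not overlap (55.0% of all genes). Hoxa5, Hoxc10 and Hoxd8 were the higher ones under every scaling. The lower ones depended on it. Scaling each array to its median left Hoxb2 and Hoxc4 lower, and Hoxa13 (-0.07), Hoxb5 (-0.11) and Hoxd11 (-0.14) no longer passed. Under cyclic loess Hoxc4 (-0.19) and Hoxd11 (-0.10) no longer passed and Hoxa4 did (-0.33, adjusted p = 0.00155), so of the 5 lower members Hoxb2 passed under all 3 scalings. With an array left out the adjusted p of Hoxd11 in limma ran from 0.0017 to 0.0679. Over all genes the median difference was -0.28 and the share higher among the calls 39.1%, against -0.03 and 49.2% with median scaling. A further 10 members were detected in bone and not in heart, and 0 the other way. Over all genes tested 15.4% were detected in bone only and 5.94% in heart only. Of those 10 members 7 passed the threshold, against 83.9% of all genes tested, and Hoxc13, Hoxd4 and Hoxd10 did not. The 10 were picked as detected in bone and not in heart, which favours a higher level in bone. Of the 10042 genes tested, 7900 were detected in both, so the 83.9% is no like comparison and no conclusion is drawn from the count. Hoxa9 passed with no lower bound to give. Hoxa7, at least 3.28-fold higher with 2 hearts detected, and Hoxd9, at least 1.12-fold higher with 3, were among the 7.

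Of the 9 members detected in both heart and white adipose tissue, 9 passed, 5 higher and 4 lower in white adipose tissue, against 78.7% of all genes detected in both (33.3% higher, 45.4% lower). For 5 of the 9 the tissues did not overlap (47.4% of all genes). The 5 higher ones were Hoxa4 (0.83 ± 0.13), Hoxb2 (1.45 ± 0.11), Hoxa5 (3.03 ± 0.13), Hoxd8 (3.07 ± 0.17) and Hoxb5 (3.28 ± 0.19). The lower ones were smaller, Hoxa13 at -0.33, Hoxc10 at -0.44, Hoxc4 at -0.51 and Hoxd11 at -0.30. The Hoxd11 call was not firm: with an array left out its adjusted p in limma ran from 0.0021 to 0.0786. With median scaling Hoxa13 turned to 0.28 (adjusted p = 0.00413), Hoxc10 to 0.0070, Hoxd11 did not pass, and the members split 6 higher and 1 lower. Over all genes that scaling moved the median difference from -0.15 to 0.16 and the share higher among the calls from 42.3% to 59.1%. A further 12 members were detected in white adipose tissue and not in heart, and 0 the other way. Over all genes tested those shares were 13.9% and 6.05%. Of those 12 members 11 passed, against 79.3% of all genes tested, and Hoxd10 did not (adjusted p = 0.489). Hoxb3 is among the 11, with no lower bound to give. The 12 were picked as detected in white adipose tissue and not in heart, which favours a higher level there. Of the 9871 genes tested, 7899 were detected in both, so the 79.3% is no like comparison and no conclusion is drawn from the count. Hoxa7 was at least 11.1-fold higher, Hoxd4 at least 7.51-fold and Hoxd9 at least 3.09-fold, with 2, 1 and 3 hearts detected.

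The starts of 4 members with different tissue patterns are shown, so that the promoters can be read beside the levels. Hoxa5 was detected in every tissue, Hoxa7 and Hoxd4 in bone and white adipose tissue, and Hoxa9 in bone alone. Each window holds 250 bases before and 50 after the annotated start, from RefSeq (build GRCm38.p6), written 5′ to 3′ on the gene's strand. Capitals mark matches, on both strands, to TTTATG, the core bound by Cdx factors, which act upstream of Hox genes, or to the TATA box TATAAA. A composite site of Pbx and Hox proteins, TGATTNAT, was searched as well and is in none of the 4.
Hoxa5 (chr6:52204538-52204837, minus strand): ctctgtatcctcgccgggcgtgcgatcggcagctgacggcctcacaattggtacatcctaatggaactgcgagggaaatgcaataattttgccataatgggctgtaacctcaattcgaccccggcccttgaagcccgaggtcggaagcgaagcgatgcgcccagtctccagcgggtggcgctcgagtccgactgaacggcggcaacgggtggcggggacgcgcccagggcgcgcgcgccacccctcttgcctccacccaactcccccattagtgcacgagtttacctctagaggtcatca
Hoxa7 (chr6:52218524-52218823, minus strand): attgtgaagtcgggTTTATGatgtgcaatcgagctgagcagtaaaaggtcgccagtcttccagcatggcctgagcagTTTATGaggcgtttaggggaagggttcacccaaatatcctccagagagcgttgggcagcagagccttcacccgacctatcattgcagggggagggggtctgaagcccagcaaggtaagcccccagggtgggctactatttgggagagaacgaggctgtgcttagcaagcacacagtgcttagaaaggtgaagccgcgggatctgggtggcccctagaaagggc
Hoxa9 (chr6:52227321-52227620, minus strand): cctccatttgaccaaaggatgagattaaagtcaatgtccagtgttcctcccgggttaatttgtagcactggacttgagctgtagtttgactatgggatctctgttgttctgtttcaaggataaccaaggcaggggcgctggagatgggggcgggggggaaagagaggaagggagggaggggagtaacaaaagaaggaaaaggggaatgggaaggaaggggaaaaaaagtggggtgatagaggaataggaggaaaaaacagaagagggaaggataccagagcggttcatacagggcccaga
Hoxd4 (chr2:74721728-74722027, plus strand): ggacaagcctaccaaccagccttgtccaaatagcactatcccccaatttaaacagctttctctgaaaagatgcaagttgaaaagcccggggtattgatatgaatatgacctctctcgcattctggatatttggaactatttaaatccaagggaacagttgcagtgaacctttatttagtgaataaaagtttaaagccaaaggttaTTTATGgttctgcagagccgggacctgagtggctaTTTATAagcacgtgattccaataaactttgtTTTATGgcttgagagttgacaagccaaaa

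Of the 38 Hox genes 22 had such a window, and 24 windows were read. Their median number of CG dinucleotides was 14.5, against 7.0 over all 32851 windows, and windows of members detected in no tissue held a median of 17.5 (10 windows) against 11.5 for detected members (14 windows). The Hoxa5 window held 29 CG dinucleotides, Hoxa7 9, and Hoxa9 and Hoxd4 4 each. TTTATG stood in 5 of the 24 Hox windows (11.9% of all windows), TATAAA in 4 (13.6%) and the Pbx and Hox composite in 2 (3.22%). Beyond the windows shown, Hoxb8, detected in no tissue, held 2 TTTATG matches. Hoxb4, Hoxd9 and Hoxd10, detected in bone and white adipose tissue like Hoxa7 and Hoxd4, held 0. The windows shown thus do not stand for their tissue patterns. A match describes letters in the window and is no evidence of binding.

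The comparison the study was built on, heterozygous against wild-type, was run within each tissue with arrays normalized together per tissue. No Hox gene passed an adjusted p of 0.05 in limma, with 0 of 9 in the heart, 0 of 19 in bone and 0 of 21 in white adipose tissue. Over all genes 0.00% passed in the heart, 0.0740% in bone and 0.0108% in fat. At an unadjusted p under 0.05 there were 1 Hox gene in the heart, 3 in bone and 5 in fat, against 5.53%, 18.5% and 29.6% of all genes. In simulated data of the same size the test recovered 58.6% of 2-fold changes in the heart, 94.9% in bone and 87% in fat, and 24.2%, 54.1% and 48.5% of 1.5-fold changes. Those data had independent noise in each gene, and the changed genes were drawn from all detected genes. Shifts shared by many genes were not in them, and dim genes were not looked at apart. The shares may therefore not hold for the Hox genes.

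In heart the members ran from -0.64 to 0.09, with a median of -0.10 against -0.09 over all genes. Hoxa5 had the lowest p. Its log2 levels were 5.05, 5.07, 5.18 and 5.08 in the heterozygous hearts and 5.49, 5.78, 5.36 and 6.33 in the wild-type ones. All 4 heterozygous hearts lay below all 4 wild-type hearts, as for 8.03% of all genes. The change was -0.64 ± 0.21 (unadjusted p = 0.0152, adjusted p = 0.608 in limma), and -0.48 without wild-type replicate 4, which holds the value of 6.33. Adipocyte markers moved with it: their summed intensity was 222, 252, 221 and 262 in the heterozygous hearts and 348, 461, 261 and 403 in the wild-type ones. Of the 5 adipocyte markers 3 were detected in heart, and Plin1 and Retn were not. Their part in the Hoxa5 values was not tested. Next by p were Hoxb2 at -0.26 ± 0.16 and Hoxb5 at -0.33 ± 0.26.

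In bone the members ran from -0.52 to 0.18, with a median of -0.04 against -0.03 over all genes, and for 0 of 19 did the genotypes fail to overlap (9.87% of all genes). Hoxb4 stood at 6.15, 6.45, 6.36 and 6.05 in heterozygous bone and at 6.83, 7.28, 6.22 and 6.77 in wild-type bone, a change of -0.52 ± 0.19 (limma, adjusted p = 0.169). Wild-type replicate 3 lay among the heterozygous arrays, and its mouse number is the one given under both genotypes. Without it Hoxb4 changed by -0.71 (adjusted p = 0.0186) and Hoxc6 by -0.41 (adjusted p = 0.0204), but 8.57% of all genes then passed too. Of the marrow markers, the haematopoietic stem and progenitor sum overlapped, at 642 to 669 in heterozygous and 638 to 803 in wild-type bone (3 of 4 detected, Flt3 not). Neutrophil, B cell and erythroid markers separated the genotypes in the same arrays. The neutrophil sum was 89908 to 98329 in heterozygous and 79885 to 89734 in wild-type bone, with 5 of 5 markers detected. The B cell sum was 3338 to 3813 against 3869 to 4594 (4 of 4 detected), and the erythroid sum 37750 to 40474 against 41324 to 43268 (2 of 2). Their part in the Hox differences was not tested. With all arrays Hoxc6 was at -0.30 ± 0.11 and Hoxb5 at -0.36 ± 0.14.

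In white adipose tissue the members ran from -0.26 to 0.66, with a median of 0.21 against 0.03 over all genes, and 17 of 21 had a positive change, against 5098 of all 9292 genes tested. In these arrays the erythroid sum was 1083 to 2532 in heterozygous and 671 to 1080 in wild-type tissue (2 of 2 markers detected). The 2532 was in heterozygous replicate 2, and the next highest was 1542 in replicate 1. The brown adipocyte sum was 739 to 888 against 500.5 to 672 (3 of 5 detected, Elovl3 and Zic1 not). Their part in the Hox differences was not tested. Hoxc6 stood at 11.11, 11.21, 11.34 and 11.29 in the heterozygous arrays and at 11.54, 11.57, 11.36 and 11.53 in the wild-type arrays. The heterozygous arrays were all lower, by -0.26 ± 0.07 (adjusted p = 0.0722). Hoxc9 went the other way, from 9.06, 9.31, 9.06 and 9.22 in heterozygous to 8.77, 8.55, 9.02 and 8.90 in wild-type arrays, without overlap (0.35 ± 0.11, adjusted p = 0.0866). For 16.6% of all genes the genotypes did not overlap. Neither gene passed in limma with all 8 arrays.

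Hoxa7 showed how much the wild-type arrays varied among themselves. Its levels were 9.69, 9.68, 10.10 and 9.94 in heterozygous white adipose tissue and 8.72, 8.73, 9.60 and 9.70 in wild-type. Wild-type replicates 1 and 2 lay well below replicates 3 and 4, and these overlapped the heterozygous arrays. The change was 0.66 ± 0.23 (adjusted p = 0.102). With the replicate number as a block it passed (adjusted p = 0.0196), as did 14.1% of all genes, and with the brightness of the array as a covariate it was -0.16. The heterozygous white adipose arrays were dimmer than the wild-type ones, with mean raw intensities of 553 to 666 against 702 to 820, and the heterozygous hearts were brighter (433 to 477 against 368 to 421). The part of brightness in the Hox differences cannot be told apart from genotype in those arrays.

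**Figure D4:**
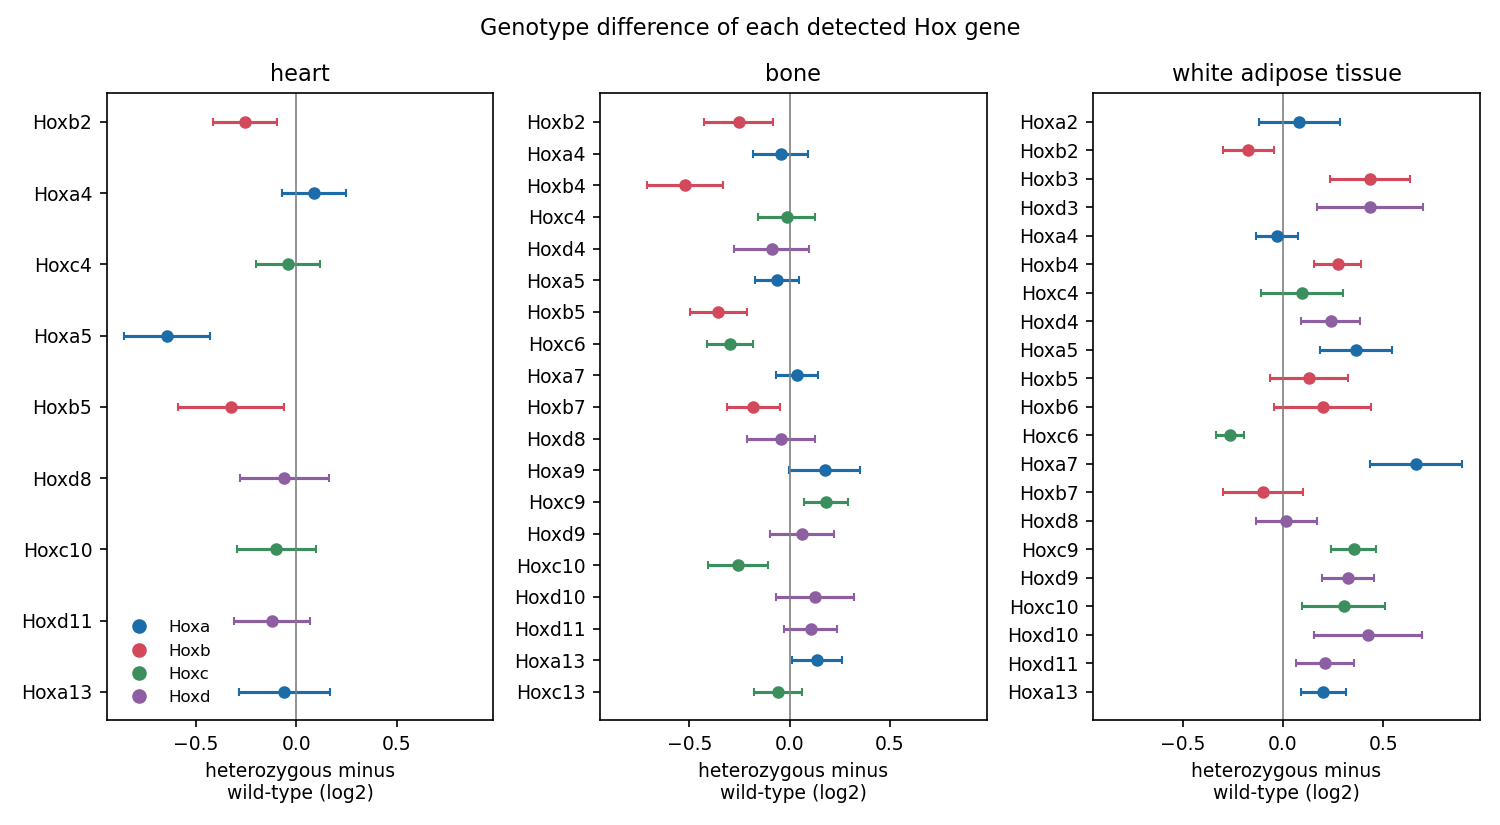
Log2 change, heterozygous minus wild-type, of each detected Hox gene with bars of 1 standard error (4 arrays a group), coloured by cluster; arrays were normalized within each tissue. No gene passed an adjusted p of 0.05 in any tissue, and changes ran from -0.64 (Hoxa5, heart) to 0.66 (Hoxa7, white adipose tissue, where the sign turned with array brightness as a covariate).

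The genotype changes were then compared between tissues directly, on the scale of all 24 arrays. Hoxa5 was the member for which they differed, at -0.70 in heart and 0.38 in white adipose tissue, a difference of 1.08 ± 0.26 (limma, adjusted p = 0.0314). In that comparison 6.15% of all genes passed. In white adipose tissue its levels, normalized within the tissue, were 9.64, 10.01, 10.10 and 10.04 in heterozygous and 9.26, 9.27, 9.74 and 10.05 in wild-type arrays, so the genotypes overlapped there. Median scaling gave 0.66 (adjusted p = 0.0510), and leaving out an array gave 0.90 to 1.25 with adjusted p from 0.0121 to 0.0849. Without wild-type heart replicate 4 the difference was 0.90 (adjusted p = 0.0170). Heterozygous arrays were brighter than wild-type ones in heart and dimmer in white adipose tissue, as given above. The part of brightness in the Hoxa5 difference was not tested. Between bone and heart 0 of 9 members passed (0.0252% of all genes) and between bone and white adipose tissue 0 of 17 (1.67%), in limma, with 1 member each at an unadjusted p under 0.05. In the last comparison Hoxb4 came nearest, at -0.51 in bone and 0.29 in white adipose tissue (difference -0.80 ± 0.23, adjusted p = 0.0777).

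**Figure D5:**
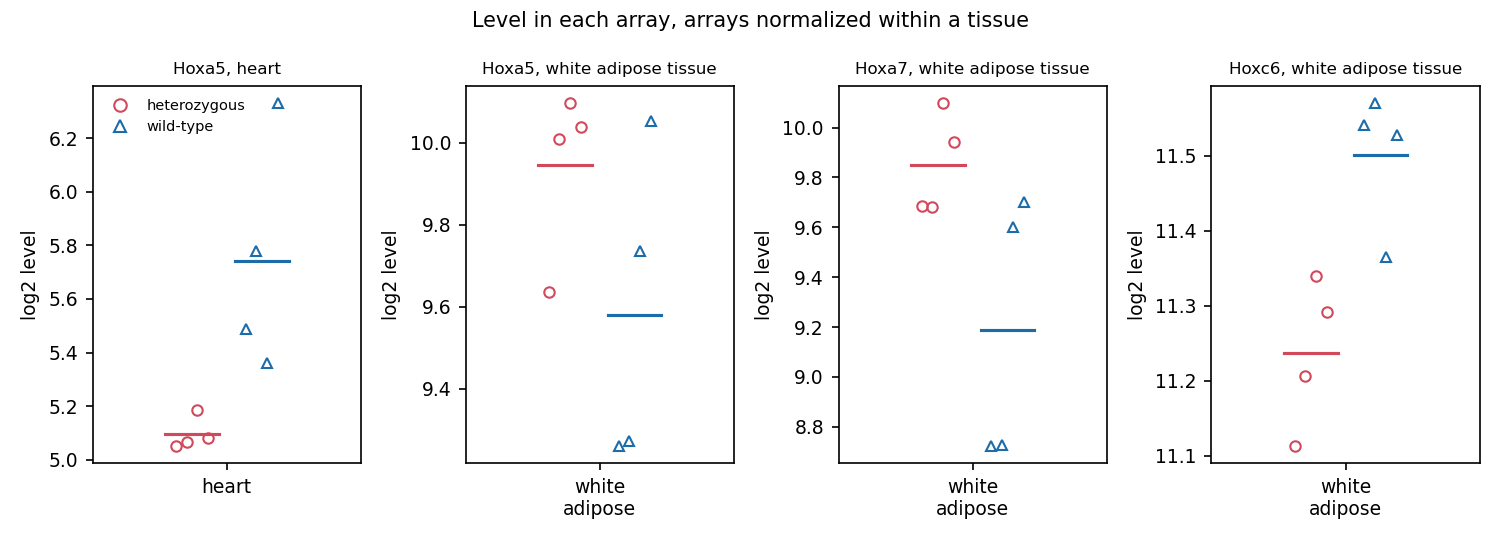
Log2 level in each array for Hoxa5 in heart and white adipose tissue and for Hoxa7 and Hoxc6 in white adipose tissue, with heterozygous arrays as circles, wild-type arrays as triangles and means (n = 4) as lines; each panel has its own scale, and arrays were normalized within the tissue. Hoxa5 and Hoxa7 in wild-type white adipose tissue fall into a low and a high pair of arrays (8.72 and 8.73 against 9.60 and 9.70 for Hoxa7).

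Genes that act with the Hox clusters were followed in lists. For the genotypes, 0 members of any list passed in any tissue in limma, and 0 to 7 a list and tissue were at an unadjusted p under 0.05. Among the TALE cofactors 9 were on the array. Meis1 and Meis2, which bind DNA with Hox proteins, were both lower in bone than in heart, Meis2 by -3.85 ± 0.09 and Meis1 by -2.08 ± 0.09. Both were also lower in white adipose tissue than in heart, Meis2 by -1.12 ± 0.09 and Meis1 by -1.60 ± 0.09, so the tissue with the fewest detected Hox genes had the highest levels of both. Bone was lower than white adipose tissue in Meis2 (-2.74 ± 0.10) and Meis1 (-0.48 ± 0.09). Of the 6 cofactors detected in both heart and bone, 2 were higher and 3 lower in bone (median -1.03). Over all genes 32.6% were higher and 50.8% lower (median -0.28). Of the 7 cofactors detected in both bone and white adipose tissue, 4 were higher and 2 lower in bone (median 0.40). Over all genes 35.3% were higher and 39.8% lower (median -0.06).

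Among the Polycomb and trithorax regulators, 23 were on the array. Of the 17 detected in both bone and white adipose tissue, 9 were higher and 3 lower in bone (median 0.37). Over all genes 35.3% were higher and 39.8% lower (median -0.06). Ezh2, the enzyme that writes the repressive Polycomb mark, was 2.44 ± 0.12 higher in bone, and Suz12, its partner, 1.77 ± 0.08 higher. Against heart, 9 of 16 were higher and 6 lower in bone (median 0.29), with 32.6% higher and 50.8% lower over all genes (median -0.28). In white adipose tissue 4 of 18 were higher than in heart and 10 lower (median -0.31), with 33.3% higher and 45.4% lower over all genes (median -0.15). Suz12 (2.47 ± 0.08) and Kdm6a (2.01 ± 0.16) were higher in bone than in heart, and Cbx7, a Polycomb reader, was lower (-2.12 ± 0.11).

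Genes that flank the clusters were followed as well. Of 15 flanking genes detected in both bone and white adipose tissue, 4 were higher and 11 lower in bone (median -0.35, against -0.06 over all genes, of which 35.3% were higher and 39.8% lower). Hibadh, a valine breakdown enzyme beside the Hoxa cluster, was -1.32 ± 0.05 lower in bone, and Nfe2l1, beside Hoxb, -1.15 ± 0.06. Against heart, 7 of 15 were higher and 7 lower in bone (median -0.00326, against -0.28 over all genes, with 32.6% higher and 50.8% lower). In white adipose tissue 10 of 15 were higher than in heart and 4 lower (median 0.31, against -0.15 over all genes, with 33.3% higher and 45.4% lower). That last split over all genes turns with median scaling, as given above. Of 6 upstream or cluster-linked homeobox genes, Cdx1 was detected in both heart and bone and was -0.81 ± 0.16 lower in bone. Of 18 other transcription factors of body position, 2 were detected in both heart and bone. Both were lower in bone, as were 50.8% of all genes (median over all genes -0.28), Irx3 by -1.33 ± 0.35 and Irx5 by -0.26 ± 0.10. With median scaling that median was -0.03, and Cdx1, Irx3 and Irx5 were not tested under it.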

How the data were processed

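Raw probe intensities and detection p-values of 24 arrays were used as the authors deposited them; the intensities carry no background subtraction or normalization, as read from the values. GenomeStudio 2011.1 is named in the submitters' processing notes, and the detection p-values were used as deposited. The authors' other deposited set holds background-subtracted, tissue-wise scaled intensities and served as an alternative; the plan had assumed the sets the other way round. Per the labels' protocols, Trizol and RNeasy served for extraction and MessageAmp for biotin labelling.

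Intensities were corrected with the normexp model from detection p-values (offset 16), quantile-normalized and log2-transformed (R 4.3.3, limma 3.58.1), over 24 arrays for tissue comparisons and within a tissue for genotypes. Of 25697 probes, 23978 carry 1 gene symbol, 0 several and 1719 none; all 38 Hox genes matched RefSeq by Entrez number. Probes were kept at a detection p under 0.05 in at least 4 of 8 arrays, and the probe of highest mean stood for its gene. Models had a trend of variance on mean, with Benjamini-Hochberg adjustment over all genes tested and a threshold of 0.05. Bone against white adipose tissue had the animal as a random block (consensus correlation -0.12, statmod 1.5.0). The scripts were tested on simulated data. The number of arrays limits the precision.

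Every Hox gene was accounted for. The genotype text gives the 3 members of smallest p per tissue, and the lists name up to 3 genes. The members and lists were chosen with earlier results of these data known. Alternatives covered background correction, offset, scaling, detection, probe choice, trend, blocks and each array left out.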

Additional observations from a re-analysis of the deposited data

Results flagged for a closer look

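For 98 groups of 4 arrays (a Hox gene, tissue and genotype) the array farthest from the rest was looked at, and in 3 it stood apart; chance alone gives about 1 group in 20. Hoxc4 in heterozygous heart replicate 1 was at a log2 level of 4.39, below the other 3 arrays at 4.89 to 4.99. Hoxa7 in heterozygous bone replicate 4 was at 7.65, above the others at 7.42 to 7.45, and this array has the mouse number that is given under both genotypes. Hoxc10 in heterozygous white adipose replicate 3 was at 5.92, below the others at 6.22 to 6.27.

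The genotype change of Hoxa5 differed between tissues by 1.08 (white adipose tissue minus heart, limma, adjusted p = 0.0314). Neither tissue's change alone passed the threshold. Array brightness differed between the genotypes in opposite directions in these tissues, and its part was not tested.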

How the results depend on the processing

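The count of detected Hox genes in heart was 9 and became 2 at a detection p under 0.01 in all 8 arrays, 4 at under 0.01 in at least 4 arrays, and 18 at under 0.05 in at least 1 array. In bone the strictest rule gave 10 in place of 19. With members held to that strictest rule, 1 passed between heart and bone, 2 between heart and white adipose tissue and 8 between bone and white adipose tissue, since fewer genes enter. Between heart and bone, median scaling and wild-type arrays alone each gave 5 in place of 8. Leaving out an array gave 6 to 9 between heart and bone, 8 to 9 between heart and white adipose tissue, and 13 between bone and white adipose tissue.

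For the genotypes, leaving out an array gave 0 members for hearts, 0 to 2 for bone and likewise 0 to 2 for fat: Hoxb4 and Hoxc6 without wild-type bone replicate 3, Hoxc6 and Hoxc9 without wild-type white adipose replicate 3, and Hoxa5 and Hoxa7 without replicate 4, when 8.57%, 9.27% and 12.6% of all genes passed. With the replicate block 1 member passed in white adipose tissue (Hoxa7, adjusted p = 0.0196) and 0 in heart and bone. Pairing by number was taken as shown only where every pair correlated above 0.1. Same-numbered arrays correlated at -0.19 to 0.23 (heart) and -0.08 to 0.06 (bone). In fat 3 of the 4 pairs were above it (0.38, 0.13 and 0.38) and the other was at -0.07, so pairing there is not settled; 14.1% of all genes passed with the block. Arrays of 1 animal in bone and white adipose tissue correlated at -0.35 to 0.04, and without that block the count stayed at 13. For the difference of genotype changes between heart and white adipose tissue, whose alternatives were chosen after seeing the data, median scaling gave 0 members and leaving out an array 0 to 1; between bone and white adipose tissue leaving out an array gave 0 to 1 (Hoxb4).

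Signs turned for 5 members, and the cause was not tested. With median scaling Hoxa13 and Hoxc10 (white adipose tissue minus heart), which passed at -0.33 and -0.44, were 0.28 and 0.0070, and Hoxd11 (bone minus white adipose tissue) 0.0087. Hoxd11 was also 0.044 under cyclic loess, 0.023 over wild-type arrays, 0.014 without the mouse number under both genotypes, and -0.035 to 0.027 with an array left out. Hoxd10 ran from -0.087 to 0.088 with an array left out. Hoxa7 in white adipose tissue was 0.66 and became -0.16 with brightness as a covariate.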
